A study of Homo sapiens with 12 samples.

Results

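The RAB GTPases were examined in K562 cells exposed to a USP7 inhibitor. The group comprised all protein-coding genes whose symbol was RAB followed by a number, an optional letter and an optional further number, after the identifiers in the count files had been matched to GENCODE release 44. This name rule gave 63 of the 60609 genes listed, with no expression value used. K562 is an established line from a chronic myeloid leukemia, so every library came from 1 cell line. Cultures received either DMSO, the solvent, or 10 μM FT671, a compound that blocks the deubiquitinase USP7, and both groups were harvested after 48 h with 3 RNA-seq libraries each. The labels number the libraries as replicates 1, 2 and 3, and p-values measure the spread between these libraries.

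RAB proteins are small GTPases that mark the membranes of the secretory and endocytic pathways. A guanine nucleotide exchange factor (GEF) loads a RAB with GTP on its target membrane, the GTP-bound form recruits effectors that tether, move or fuse vesicles, and a GTPase-activating protein (GAP), usually one with a TBC domain, switches the RAB off. Each RAB also needs a geranylgeranyl lipid, attached by RAB geranylgeranyl transferase with the help of a RAB escort protein, and is taken off membranes by GDP dissociation inhibitors. Several RABs occur as close paralogues that share effectors.

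The libraries held between 4555220 and 14250500 counts. The limit of detection was set at 3 counts, which is between 0.211 and 0.659 CPM (counts scaled to library size) depending on depth and covers counting error only. Between 0.242% and 0.270% of all counts in a library fell on the 63 RAB genes. USP7 itself, the target of the inhibitor, was at 118, 107 and 131 CPM after DMSO and at 29.2, 34.0 and 35.7 CPM after FT671 (log2 fold change -1.83, SE 0.104, adjusted p = 2.66e-08). Of 10 erythroid genes that K562 is known for, none was below 1 CPM in all libraries, and their summed level ranged from 1421 to 1433 CPM after DMSO and from 1231 to 1269 CPM after FT671. Of 15 genes that mark lymphocytes, monocytes or granulocytes, and epithelial or stromal cells, 7 stayed below 1 CPM in every library, MS4A1 and KRT5 were at 0 counts, and the signal of the rest came mostly from KRT19, EPCAM, LYZ and CD3D. These lists summed to between 18.6 and 23.5 CPM (lymphocyte), 63.9 and 66.9 CPM (monocyte or granulocyte) and 217 and 240.0 CPM (epithelial or stromal) after DMSO. After FT671 they summed to between 26.5 and 32.8, 78.8 and 82.9, and 245 and 259 CPM, and their part in the results on RAB genes was not tested. In such bulk RNA, fewer cells of a kind and less RNA per cell cannot be told apart.

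Of the 63 RAB genes, 44 had enough counts to be among the 13895 genes tested. Another 7 were at 0 counts in all 6 libraries: RAB3C, RAB4B, RAB6C, RAB9B, RAB17, RAB39A and RAB44. A further 7 (RAB6D, RAB7B, RAB19, RAB25, RAB34, RAB39B and RAB40A) had between 1 and 3 counts in their highest library. The remaining 5 were RAB33A, RAB36, RAB37, RAB41 and RAB42, of which RAB37 alone reached 10 counts in a library, with 3, 3 and 1 counts after DMSO and 2, 4 and 10 after FT671. RAB17 and RAB25 are known from polarised epithelia and RAB3C from neurons, so the untested genes include tissue-restricted members. The zero of RAB4B stands beside readthrough transcripts on the same strand, MIA-RAB4B and RAB4B-EGLN2, which cover 25.8% and 27.3% of its exons and were also at 0 counts. RAB6C is a retrogene nearly identical to RAB6A, and reads that match both can be lost from either.

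To compare genes with one another, levels were expressed per length, as CPM per kb of exon. The length is that of all annotated exons of a gene together, so the order depends on the annotation. By CPM alone, RAB10, RAB7A and RAB1B were at 254, 253 and 240 after DMSO and at 276, 295 and 277 after FT671. Per kb, RAB1B, which acts between the endoplasmic reticulum (ER) and the Golgi, ranked first among RAB genes. It was at 123 ± 8.10 CPM per kb after DMSO and 142 ± 4.94 after FT671 (SD, n = 3). RAB10, a RAB of exocytic carriers, followed at 69.4 ± 4.06 and 75.6 ± 4.08 CPM per kb, and RAB11B, of recycling endosomes, at 72.7 ± 5.24 and 71.7 ± 4.31, and the spreads of these neighbours overlap. RAB7A, of late endosomes and lysosomes, lay clearly below them on this scale, at 35.1 ± 1.96 and 41.1 ± 3.75 CPM per kb. RAB14, which works between the Golgi and endosomes, came next by the mean over the 6 libraries, at 28.9 ± 1.75 and 28.4 ± 0.458 CPM per kb. Within the groups, RAB32 was as high after DMSO (29.0 ± 4.84) and RAB11A was higher after FT671 (30.1 ± 1.24). These 5 genes gave between 46.5% and 52.0% of the summed level of all RAB genes in a library. At the other end, RAB43 averaged 0.246, RAB15 0.329, RAB30 0.398 and RAB3B 0.441 CPM per kb over the 6 libraries. Added over all RAB genes, the level was 694 ± 13.01 CPM per kb after DMSO and 714 ± 26.9 after FT671 (SD, n = 3), with overlapping groups.

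**Figure D1:**
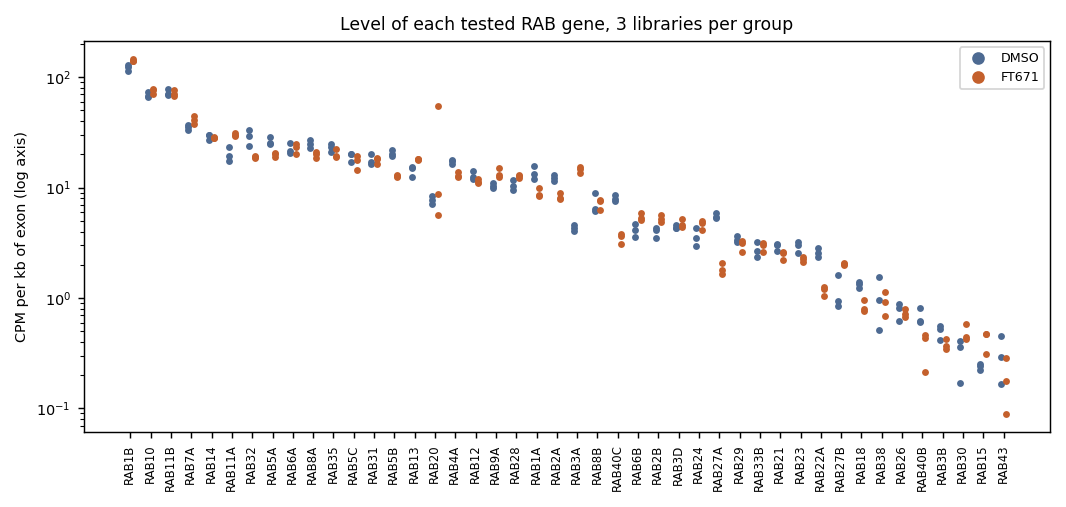
Level of each of the 44 tested RAB genes in CPM per kb of exon on a log axis, ordered by the mean over the 6 libraries, with 1 point per library, DMSO in blue and FT671 in orange. RAB1B stood at the top, the groups of RAB27A, RAB40C and RAB3A were apart, and 1 FT671 library of RAB20 lay far from all others.

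FT671 changed RAB genes in both directions. By the edgeR quasi-likelihood test, adjusted over all 13895 genes tested by the Benjamini-Hochberg method, 24 of the 44 RAB genes (54.5%) passed an adjusted p of 0.05, against 50.1% of all genes tested. Of these, 11 were higher (25.0%, against 23.6% of all genes tested) and 13 were lower (29.5%, against 26.5%). The share of RAB genes called was thus near that of all genes, and so was the median log2 fold change, at -0.05 for RAB genes and -0.01 for all genes tested. At an adjusted p of 1e-05, which 5.92% of all genes tested passed, RAB3A was higher (1.79% of all genes tested) and RAB27A and RAB40C were lower (4.13%). The 3 FT671 libraries lay above the 3 DMSO libraries for 12 RAB genes and below them for 14, while 26.8% and 30.3% of all genes tested showed these patterns. The number of higher genes varied with the library left out: it was 4 without DMSO replicate 1, 6 without FT671 replicate 2 and 7 without FT671 replicate 3. For the lower genes the number stayed between 11 and 15 when any library was left out. At 1e-05, 9 RAB genes passed without DMSO replicate 3 and 0 passed without FT671 replicate 3, where 22 had an unadjusted p under 0.05 in edgeR. DESeq2's Wald test on all libraries gave 6 RAB genes at 1e-05. For these other fits the share of all genes called is not given here. Leaving out a library changes both the number of values and their spread, so the counts can fall or rise. Without DMSO replicate 3, 13 RAB genes were higher and 15 lower. With no share of all genes beside them, these counts do not set RAB genes apart.

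**Figure D2:**
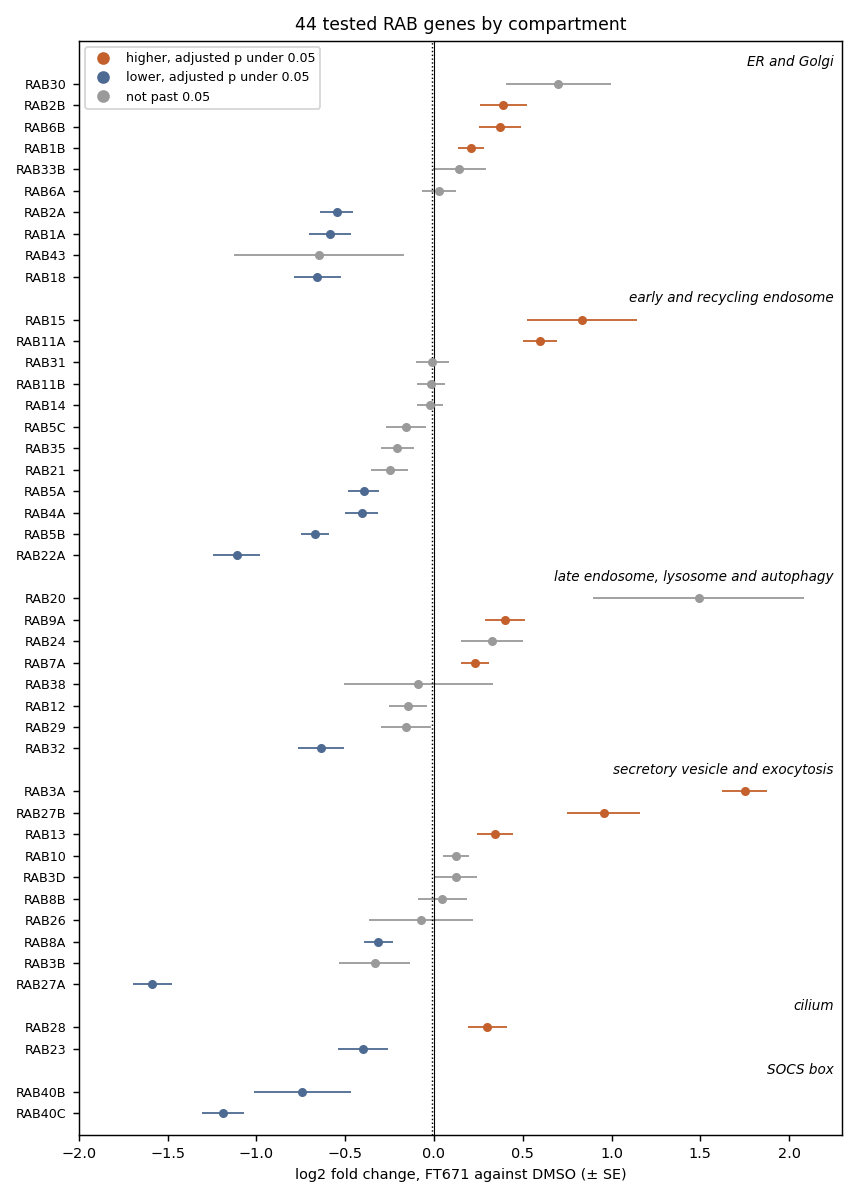
Log2 fold change of each tested RAB gene after FT671 against DMSO, grouped by the compartment in which the protein works, with bars of 1 SE, and with higher genes in orange, lower genes in blue and genes not past 0.05 in gray. The dotted line is the median of all genes tested, and every compartment other than the SOCS box group had members on both sides of it.

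The largest changes were in RABs of secretory vesicles and exocytosis, a group with 13 genes of which 10 were tested, 3 rose and 2 fell. Over all genes tested 23.6% were higher and 26.5% lower. RAB27A, which docks secretory granules, melanosomes and exosome-forming bodies at the plasma membrane, was at 61.3, 60.5 and 67.1 CPM after DMSO and at 18.8, 23.6 and 20.3 CPM after FT671. All FT671 libraries lay far below all DMSO libraries. The gene spans chr15:55202966-55319113 on the minus strand (hg38, GENCODE release 44). The mean fell from 62.9 ± 3.60 to 20.9 ± 2.42 CPM (SD, n = 3), a log2 fold change of -1.58 (SE 0.108, adjusted p = 1.14e-07).

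Its paralogue RAB27B, which shares effectors with RAB27A, moved the other way. It was at 6.01, 6.67 and 11.6 CPM after DMSO and at 14.6, 14.2 and 14.9 CPM after FT671. RAB27B spans chr18:54717860-54895516 on the plus strand. The FT671 libraries were close to each other and above every DMSO library, of which replicate 3 was the highest. The log2 fold change was 0.96 (SE 0.203, adjusted p = 0.00143). Within each library, RAB27A exceeded RAB27B by 2.35 ± 0.434 on the log2 scale of CPM per kb after DMSO, and after FT671 the ratio was -0.15 ± 0.190 (SD, n = 3). The ratio thus shifted 5.66-fold, from an excess of RAB27A to near equality per kb of exon. By CPM alone, RAB27A remained higher after FT671, at 20.9 ± 2.42 against 14.6 ± 0.339 for RAB27B. The levels of both genes together were 6.68 ± 0.741 CPM per kb after DMSO and 3.88 ± 0.181 after FT671.

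RAB3A, which regulates calcium-triggered exocytosis of synaptic vesicles and granules, was at 7.73, 8.13 and 7.19 CPM after DMSO and at 26.6, 24.1 and 27.4 CPM after FT671. The groups were far apart, with little spread within either, and the gene spans chr19:18196784-18204042 on the minus strand. The log2 fold change of 1.75 (SE 0.128, adjusted p = 1.64e-07) was the largest rise among the RAB genes. Its paralogues RAB3B, at 0.502 ± 0.0767 and 0.379 ± 0.0411 CPM per kb, and RAB3D, at 4.40 ± 0.122 and 4.74 ± 0.433, did not pass the test (log2 fold change -0.33 and 0.12, adjusted p = 0.184 and 0.394). After DMSO, RAB3A and RAB3D were at similar levels per length (log2 ratio -0.03 ± 0.0577), and after FT671 RAB3A led by 1.62 ± 0.118. The exons of RAB3A overlap MPV17L2 on the opposite strand over 9.24% of their length. MPV17L2 itself rose by 0.51 on the log2 scale, and the strand setting of the counting is not given in the sources used here.

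RAB8A and RAB13 were the other called members of this group. RAB8A, which sends vesicles from the Golgi and recycling endosomes to the plasma membrane and the cilium, was at 113, 132 and 122 CPM after DMSO and at 100, 92.1 and 103 CPM after FT671 (log2 fold change -0.31, SE 0.0828, adjusted p = 0.00618). A transcript on the opposite strand, ENSG00000269243, covers 39.8% of RAB8A exons and was lower as well (log2 fold change -0.36). RAB13, known from the traffic of tight junction proteins, was at 42.1, 41.1 and 34.1 CPM after DMSO and at 50.5, 50.3 and 49.4 after FT671 (log2 fold change 0.34, SE 0.101, adjusted p = 0.0121). The groups did not overlap for either gene. RAB8B had a log2 fold change of 0.05 (adjusted p = 0.797) and RAB10 of 0.13 (adjusted p = 0.167).

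To show the promoters of the RAB genes with the largest changes, the 250 bases before the RefSeq start (GRCh38.p14) are given 5′ to 3′ on the strand of the gene, with CG dinucleotides in capitals. RAB27A and RAB27B are shown as the paralogues that moved in opposite directions, and RAB3A and RAB40C as the largest rise and the second largest fall. RAB27A lies at chr15:55319124-55319373 on the minus strand, RAB27B at chr18:54717607-54717856 on the plus strand, RAB3A at chr19:18204043-18204292 on the minus strand and RAB40C at chr16:589107-589356 on the plus strand.
RAB27A: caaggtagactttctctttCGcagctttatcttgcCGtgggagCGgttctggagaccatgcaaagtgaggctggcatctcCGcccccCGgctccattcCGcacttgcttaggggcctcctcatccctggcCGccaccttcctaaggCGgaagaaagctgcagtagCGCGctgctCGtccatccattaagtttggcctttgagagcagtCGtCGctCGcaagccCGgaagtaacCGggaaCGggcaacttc
RAB27B: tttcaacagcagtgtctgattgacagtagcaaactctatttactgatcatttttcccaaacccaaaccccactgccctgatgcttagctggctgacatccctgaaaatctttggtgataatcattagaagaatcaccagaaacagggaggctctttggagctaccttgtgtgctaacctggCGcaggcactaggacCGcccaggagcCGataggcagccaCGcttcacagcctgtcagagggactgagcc
RAB3A: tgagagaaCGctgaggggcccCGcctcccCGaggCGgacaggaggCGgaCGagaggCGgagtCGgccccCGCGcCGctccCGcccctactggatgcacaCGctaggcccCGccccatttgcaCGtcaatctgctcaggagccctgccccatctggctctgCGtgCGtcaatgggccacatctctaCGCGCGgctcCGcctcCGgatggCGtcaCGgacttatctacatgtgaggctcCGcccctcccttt
RAB40C: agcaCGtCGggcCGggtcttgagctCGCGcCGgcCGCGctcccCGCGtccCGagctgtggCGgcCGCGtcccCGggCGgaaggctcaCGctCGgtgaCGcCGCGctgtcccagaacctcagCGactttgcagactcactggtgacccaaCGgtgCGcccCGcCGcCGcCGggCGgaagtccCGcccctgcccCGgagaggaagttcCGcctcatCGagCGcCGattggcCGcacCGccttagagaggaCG
The 4 stretches hold 17, 4, 25 and 38 CG dinucleotides in this order, so RAB27B stands apart from RAB27A in its few CG sites.

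Promoters of 300 bases, from 250 before to 50 after the start, were found for 50 of the 63 RAB genes, 36 of them tested. The median number of CG dinucleotides was 29.5 in the tested RAB genes, 27 in all 9151 tested protein-coding genes with a promoter and 12 in the 14 RAB genes that were not tested. Among called RAB genes it was 24.5 in 10 higher and 31 in 11 lower ones. The motif GGGCGG, the letters of a GC box, was present on either strand in 33 of 36 tested RAB genes (91.7%), in 72.1% of the promoters of tested protein-coding genes and in 44.6% of all 27305 promoters. CCGGAAG, the letters of an ETS site, was in 8 of 36 (22.2%) against 20.9%, and CACGTG, an E-box, was in 6 of 36 (16.7%) against 10.5% of the tested protein-coding genes. TATAAA was in none of 36 against 5.09% of those genes, and in 4 of the 14 untested RAB genes. Matches of different motifs were allowed to share bases, and a match is a description of the letters only.

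Among RABs of the ER and Golgi, 17 genes of which 10 were tested, 3 rose and 3 fell (23.6% and 26.5% of all genes tested), and the paralogues RAB1A and RAB1B, and RAB2A and RAB2B, moved in opposite directions. RAB1A, which together with RAB1B drives transport from the ER to the Golgi, was at 44.4, 39.9 and 52.5 CPM after DMSO and at 28.1, 28.2 and 33.0 CPM after FT671. The groups did not overlap, and the log2 fold change was -0.59 (SE 0.120, adjusted p = 0.00111). RAB1B was at 244, 253 and 222 CPM after DMSO and at 271, 272 and 288 CPM after FT671 (log2 fold change 0.21, SE 0.0723, adjusted p = 0.0272). All FT671 libraries of RAB1B were above the DMSO libraries, but the gap was small, and the call ended with a gene length correction (log2 fold change 0.11, adjusted p = 0.160) and with no filter on low counts (0.17, adjusted p = 0.166). Since RAB1B was the more abundant, the level of both genes together was 137 ± 6.17 CPM per kb after DMSO and 151 ± 5.77 after FT671. Antisense transcripts cover 30.2% and 13.6% of RAB1B exons (ENSG00000254452 and ENSG00000245156, log2 fold change 0.22 and 0.27), and CEP68 covers 22.9% of RAB1A exons on the opposite strand (log2 fold change -0.25, adjusted p = 0.123).

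RAB2A and RAB2B, which act at the Golgi and in the fusion of autophagosomes and endosomes with lysosomes, showed the same opposition. RAB2A was at 63.7, 73.0 and 67.8 CPM after DMSO and at 50.5, 44.4 and 45.4 after FT671 (log2 fold change -0.55, SE 0.0942, adjusted p = 2.88e-04). RAB2B was at 12.6, 15.4 and 14.7 CPM after DMSO and at 20.1, 18.5 and 17.5 after FT671 (log2 fold change 0.39, SE 0.132, adjusted p = 0.0238). Neither gene had overlapping groups. The log2 ratio of RAB2A to RAB2B per length went from 1.62 ± 0.0742 to 0.68 ± 0.0598 (SD, n = 3), and the spread within the groups was small beside this shift.

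RAB18, found on the ER and lipid droplets, fell from 19.4, 17.7 and 20.1 CPM to 11.1, 13.7 and 11.5 CPM (log2 fold change -0.66, SE 0.133, adjusted p = 9.72e-04). RAB6B, a Golgi RAB best known from neurons, rose from 25.0, 28.5 and 21.7 CPM to 35.9, 30.9 and 31.98 CPM (log2 fold change 0.37, SE 0.119, adjusted p = 0.0183). The libraries of the groups did not overlap for either gene. RAB6A, the widely expressed paralogue of RAB6B, stayed within the spread, with a log2 fold change of 0.03 (adjusted p = 0.827). RAB30, another Golgi RAB, had no overlap between groups at 2.002, 4.29 and 4.79 CPM against 6.86, 5.21 and 5.08 CPM, yet did not pass the test (log2 fold change 0.70, SE 0.294, adjusted p = 0.0615). RAB43, at 0.246 CPM per kb over all libraries, shares 79.3% of its exons with the readthrough gene ISY1-RAB43, which was at 0 counts.

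Of the 15 RABs of early and recycling endosomes, 12 were tested, 4 fell and 2 rose, against 26.5% and 23.6% of all genes tested. RAB5A, RAB5B and RAB5C are interchangeable in part as organisers of early endosomes. RAB5B was at 126, 131 and 144 CPM after DMSO and at 81.7, 83.1 and 85.6 CPM after FT671 (log2 fold change -0.67, SE 0.0787, adjusted p = 1.11e-05). RAB5A was at 94.2, 94.7 and 109 CPM after DMSO and at 70.8, 78.2 and 76.1 after FT671 (log2 fold change -0.40, SE 0.0860, adjusted p = 0.00164). For both genes the groups were clearly apart, while RAB5C, at 55.1, 55.8 and 47.0 CPM against 52.9, 39.9 and 49.4 CPM, had overlapping groups (log2 fold change -0.16, adjusted p = 0.260). The groups also overlapped in the ratio of RAB5A to RAB5C (exact permutation p = 0.4). The summed level of the 3 genes was 65.9 ± 2.0 CPM per kb after DMSO and 49.9 ± 1.72 after FT671 (SD, n = 3).

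RAB22A, a relative of RAB5 that acts in sorting and recycling of cargo taken up without clathrin, showed the largest fall of this compartment. It was at 21.95, 23.8 and 26.5 CPM after DMSO and at 11.3, 9.71 and 11.8 CPM after FT671 (log2 fold change -1.11, SE 0.133, adjusted p = 1.31e-05). Every FT671 library lay far below every DMSO library. Its paralogue RAB31, known from Golgi to endosome transport, had a log2 fold change of -0.01 (adjusted p = 0.946), a sign that turns under another scaling. RAB4A, of rapid recycling, fell from 57.6, 59.5 and 54.0 CPM to 41.2, 46.0 and 42.2 CPM (log2 fold change -0.41, SE 0.0925, adjusted p = 0.00228).

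RAB11A, the central RAB of the recycling endosome, rose instead. It was at 109, 99.3 and 134 CPM after DMSO and at 169, 165 and 179 CPM after FT671 (log2 fold change 0.60, SE 0.0978, adjusted p = 1.94e-04). DMSO replicate 3 was the highest of its group and still below every FT671 library. RAB11B, the more abundant per length, had a log2 fold change of -0.02 (adjusted p = 0.864), with a sign that turns under another scaling. The log2 ratio of RAB11A to RAB11B went from -1.87 ± 0.310 to -1.25 ± 0.0272 (SD, n = 3). RAB15, an endosomal RAB with low counts, was at 1.24, 1.19 and 1.11 CPM after DMSO and at 1.55, 2.34 and 2.32 after FT671 (log2 fold change 0.83, SE 0.308, adjusted p = 0.0363).

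RABs of late endosomes, lysosomes and autophagy numbered 13, of which 8 were tested, 2 rose and 1 fell, against 23.6% and 26.5% of all genes tested. RAB7A, which drives the fusion of late endosomes and autophagosomes with lysosomes, was at 237, 256 and 264 CPM after DMSO and at 269, 295 and 323 CPM after FT671 (log2 fold change 0.23, SE 0.0799, adjusted p = 0.0267). RAB9A, which returns mannose 6-phosphate receptors from late endosomes to the Golgi, was at 20.8, 23.3 and 21.7 CPM after DMSO and at 26.1, 27.7 and 31.9 after FT671 (log2 fold change 0.40, SE 0.114, adjusted p = 0.00971). The lowest FT671 library was close to the highest DMSO library for RAB7A and further from it for RAB9A. RAB32, a RAB of lysosome-related organelles and mitochondria, fell from 35.7, 31.5 and 25.4 CPM to 20.8, 20.3 and 19.8 CPM (log2 fold change -0.63, SE 0.129, adjusted p = 0.00102). RAB24, known from autophagy, shares 44.8% of its exons with MXD3 on the same strand and did not pass the test (log2 fold change 0.33, adjusted p = 0.138).

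RAB20, a RAB of phagosomes and endosomes, was singled out after its values were seen. It was at 11.5, 12.7 and 10.7 CPM after DMSO and at 13.3, 82.0 and 8.46 CPM after FT671. FT671 replicate 2 alone was high, and RAB20 was the only one of all 13895 genes tested whose value in that library was over 4 times that in every other library. The log2 fold change of 1.49 (SE 0.595, adjusted p = 0.0504) became -0.19 (adjusted p = 0.482) without FT671 replicate 2. The same library set the summed level of the late endosome, lysosome and autophagy group, at 105, 105 and 99.9 CPM per kb after DMSO and 97.7, 147 and 105 after FT671.

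The smaller groups each held called members. RAB40B and RAB40C carry a SOCS box, by which they join a cullin ubiquitin ligase, and both fell. RAB40C was at 31.96, 36.2 and 33.0 CPM after DMSO and at 15.9, 12.95 and 15.3 CPM after FT671 (log2 fold change -1.19, SE 0.118, adjusted p = 2.61e-06). The groups were far apart, with more than the spread of either group between them, and the gene spans chr16:589357-629272 on the plus strand. RAB40B was at 3.73, 3.84 and 4.98 CPM after DMSO and at 1.33, 2.88 and 2.67 CPM after FT671 (log2 fold change -0.74, SE 0.273, adjusted p = 0.0355), and RAB40A was not tested. Of the RABs tied to cilia, RAB23, a negative regulator of Hedgehog signaling, fell from 14.9, 12.7 and 15.9 CPM to 11.5, 11.2 and 10.3 CPM (log2 fold change -0.40, SE 0.143, adjusted p = 0.0314). BAG2 overlaps 57.8% of RAB23 exons on the opposite strand and rose by 0.59 on the log2 scale. RAB28 rose from 21.0, 22.9 and 25.8 CPM to 28.8, 27.3 and 28.6 CPM (log2 fold change 0.30, SE 0.112, adjusted p = 0.0365).

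**Figure D3:**
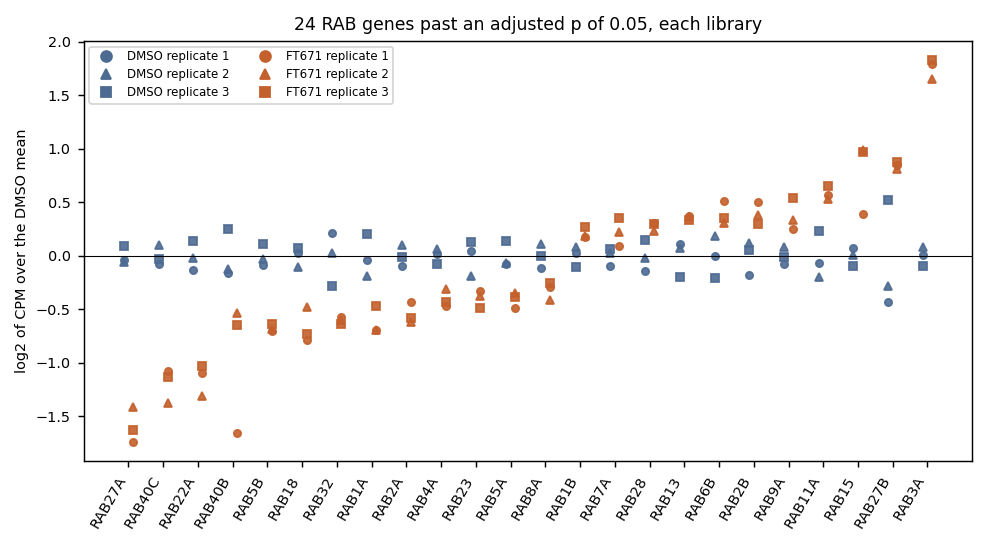
The 24 RAB genes past an adjusted p of 0.05, ordered by log2 fold change, with the CPM of each library over the mean of the DMSO libraries on a log2 scale, DMSO in blue, FT671 in orange, and replicates 1, 2 and 3 as circles, triangles and squares. The FT671 points of RAB27A lay between 18.8 and 23.6 CPM and those of RAB3A between 24.1 and 27.4 CPM, far from their DMSO points, whereas the genes in the middle were separated by small gaps.

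Of the 24 calls, 15 passed 0.05 whichever library was left out and 9 did not. The matching share among all genes called is not given here, for these fits or for the other processing below. The calls of RAB28 and RAB15 were not kept in most of these fits. RAB28 kept its call only without DMSO replicate 3, with a log2 fold change of 0.22 (adjusted p = 0.184) without DMSO replicate 1, 0.30 (0.0760) without DMSO replicate 2, 0.29 (0.0771), 0.32 (0.0649) and 0.29 (0.116) without FT671 replicates 1, 2 and 3. RAB15 lost its call without DMSO replicate 1 (0.87, adjusted p = 0.0933), DMSO replicate 2 (0.83, 0.0901), DMSO replicate 3 (0.80, 0.0691) and FT671 replicate 2 (0.78, 0.104), and it had too few counts to be tested without FT671 replicate 3. RAB40B lost it without DMSO replicates 1 (-0.83, adjusted p = 0.0543), 2 (-0.79, 0.0602) and 3 (-0.65, 0.0562) and FT671 replicates 1 (-0.55, 0.114) and 3 (-0.89, 0.0650). These 3 genes are the least secure of the calls.

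Calls of several smaller changes ended without DMSO replicate 1, FT671 replicate 2 or FT671 replicate 3. RAB1B was at 0.22 (adjusted p = 0.0633), 0.22 (0.0685) and 0.18 (0.116) without these 3 libraries in turn, and RAB7A at 0.18 (0.128), 0.24 (0.0789) and 0.16 (0.162). RAB23 was at -0.37 (adjusted p = 0.103), -0.41 (0.0672) and -0.34 (0.137) without the same libraries. RAB2B was at 0.29 (adjusted p = 0.134) without DMSO replicate 1, 0.35 (0.0712) without FT671 replicate 1 and 0.39 (0.0574) without FT671 replicate 2. RAB6B was at 0.36 (adjusted p = 0.0601) without DMSO replicate 1 and 0.32 (0.0662) without FT671 replicate 1, and RAB9A at 0.35 (0.0548) without DMSO replicate 1 and 0.30 (0.0910) without FT671 replicate 3. Every one of these genes kept its direction. With all libraries the log2 fold changes were 0.21 (RAB1B), 0.23 (RAB7A) and -0.40 (RAB23). Some of the fits above thus gave a larger change and others a smaller one. Leaving out a library also changes the power of the fit.

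Other processing ended 7 of the same calls. RAB28 lost its call with library totals (adjusted p = 0.0626), DESeq2's Wald test (0.0645), the length correction (0.0998), no filter on low counts (0.148) and thinning to the smallest total, where the log2 fold change was 0.16 (0.310). RAB15 lost it with the Wald test (adjusted p = 0.161) and no filter (0.133). RAB23 lost it with the Wald test (adjusted p = 0.101), the length correction (0.0625) and thinning (0.0616), and RAB40B with the Wald test (0.0818), the length correction (0.0631) and the GC correction (0.0612). RAB2B lost it with no filter (adjusted p = 0.0657) and thinning (0.199), RAB7A with no filter (0.0919) and RAB1B as given above.

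The 20 tested RAB genes that did not pass had log2 fold changes from -0.65 (RAB43) to 1.49 (RAB20), and 15 of them lay within 0.25 of 0. RAB21, an endosomal RAB involved in integrin traffic, had no overlap between groups at 43.1, 49.7 and 48.3 CPM against 35.2, 41.7 and 40.8 CPM, with a log2 fold change of -0.25 (SE 0.104, adjusted p = 0.0593). RAB35, of rapid recycling, was at 99.2, 94.2 and 84.9 CPM against 89.9, 76.4 and 77.2 CPM, with overlapping groups (log2 fold change -0.21, adjusted p = 0.0726). RAB21 and RAB35 were named after their values were seen. Across the 44 tested RAB genes, the log2 fold change had a Spearman correlation of -0.27 with exon length, 0.04 with exonic GC content and -0.02 with the level in DMSO, as a description across genes of the same libraries.

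A ratio of paralogues within a library does not depend on the scaling of libraries, and such ratios were compared for 15 pairs whose members were both tested. The exact two-sided permutation test of 3 against 3 libraries cannot go below 0.1, and 10 pairs gave this smallest p of 0.1 (0.150 after Benjamini-Hochberg adjustment over the 15 pairs). These 10 pairs are those whose groups did not overlap. Among all single genes tested, 26.8% were higher and 30.3% lower without overlap, and other gene pairs were not examined. Some of the 15 pairs share a gene, so they are not separate results. Besides the pairs given above, the log2 ratio of RAB22A to RAB31 went from -2.78 ± 0.0461 to -3.90 ± 0.188 (SD, n = 3). The log2 ratio of RAB1A to RAB1B went from -3.16 ± 0.296 to -3.98 ± 0.0795, and that of RAB5A to RAB5B from 0.37 ± 0.0375 to 0.64 ± 0.0609. The largest shifts in these ratios involved RAB27A and RAB27B, at -2.50, and RAB3A against RAB3B, at 2.14 on the log2 scale. The remaining pairs had overlapping groups: RAB5A and RAB5C (exact p = 0.4), RAB6A and RAB6B (0.2), RAB8A and RAB8B (0.2), RAB32 and RAB38 (0.5) and RAB40B and RAB40C (0.6).

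**Figure D4:**
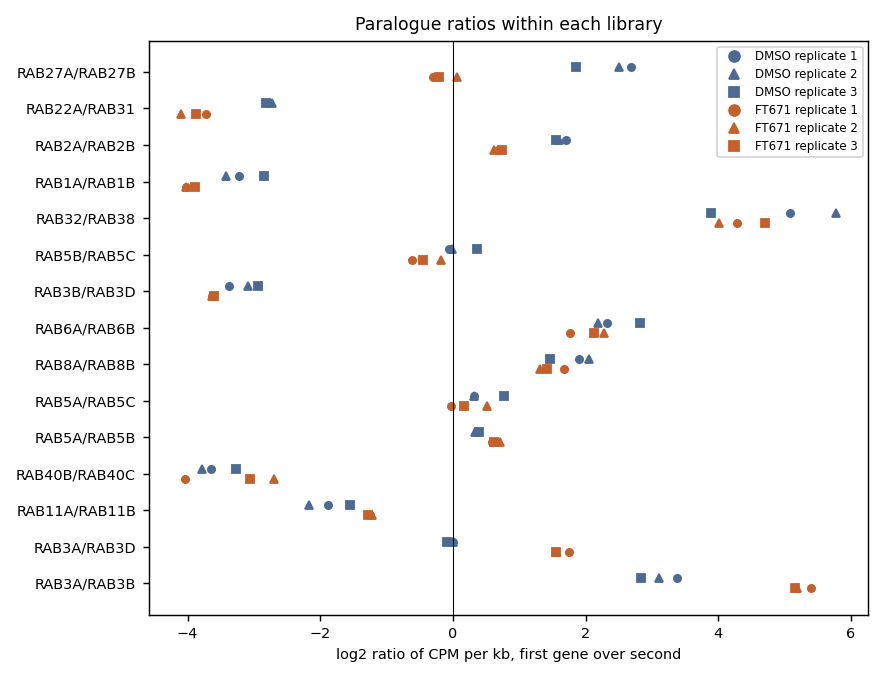
Log2 ratio of 2 paralogues in CPM per kb within each library for the 15 pairs with both members tested, ordered by the difference between the groups, with DMSO in blue and FT671 in orange. The ratio of RAB27A to RAB27B went from 2.35 to -0.15 and that of RAB3A to RAB3B from 3.11 to 5.25, while both groups overlapped for RAB32 and RAB38.

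The genes that load, activate, switch off or bind RABs were examined as 4 lists written by hand. Of 53 GEF genes and subunits, 47 were tested, 18 were lower (38.3%) and 2 were higher (4.26%), with a median log2 fold change of -0.24. Of 39 TBC domain GAPs, 33 were tested, 18 were lower (54.5%) and 2 were higher (6.06%), with a median of -0.42. Of 52 effectors, 43 were tested, 19 were lower (44.2%) and 4 were higher (9.30%), with a median of -0.17. The shares over all genes tested were 26.5% lower and 23.6% higher, and the lists were not tested against them. With a correction for gene length the split of lower and higher genes was 14 and 6 for GEFs, 15 and 6 for TBC domain GAPs and 19 and 7 for effectors. The shares of all genes called with that correction are not given here, so these splits have no such comparison.

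Among GEFs, SBF1, a DENN domain protein, was at 85.2, 80.3 and 76.5 CPM after DMSO and at 28.6, 24.1 and 22.4 CPM after FT671 (log2 fold change -1.72, SE 0.107, adjusted p = 5.27e-08). MON1B, part of the MON1-CCZ1 type of exchange factor for RAB7, had a log2 fold change of -1.10 (adjusted p = 3.37e-06). TRAPPC2L, a subunit of the TRAPP complexes, rose by 0.46 on the log2 scale (adjusted p = 0.00153). RAB3IP (Rabin8), an exchange factor for RAB8, had a log2 fold change of 0.33 (adjusted p = 0.0436) and kept its call in 1 of 6 fits that left out a library. Among GAPs, EVI5L was at 8.63, 12.4 and 9.95 CPM after DMSO and at 3.10, 2.70 and 2.76 after FT671 (log2 fold change -1.86, SE 0.217, adjusted p = 1.04e-05), and TBC1D10B fell by 1.35 on the log2 scale (adjusted p = 1.73e-07). RABGAP1L and TBC1D1 were the GAPs that rose, by 0.47 (adjusted p = 0.00126) and 0.33 (adjusted p = 0.00352).

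Among effectors, APPL1, which binds RAB5 on early endosomes, fell from 33.0 ± 4.0 to 13.5 ± 1.5 CPM (SD, n = 3), a log2 fold change of -1.24 (adjusted p = 4.32e-06). PLEKHM1, a RAB7 effector in lysosome fusion, fell from 14.7 ± 1.23 to 6.26 ± 1.52 CPM, a log2 fold change of -1.28 (adjusted p = 3.49e-05). MYO5B, a motor that carries RAB11 vesicles, rose from 1.44 ± 0.193 to 3.73 ± 1.18 CPM (adjusted p = 0.00553), and RABEPK, an effector of RAB9, rose by 0.48 on the log2 scale (adjusted p = 0.00331).

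The 7 genes of RAB prenylation and the membrane cycle examined here were all tested. RABGGTB, the catalytic subunit of RAB geranylgeranyl transferase, was at 48.0, 46.0 and 56.4 CPM after DMSO and at 93.6, 98.9 and 107 CPM after FT671 (log2 fold change 1.01, SE 0.0947, adjusted p = 1.53e-06). Every FT671 library was far above every DMSO library. On the same strand, RABGGTB exons overlap SNORD45A, SNORD45B and SNORD45C (1.42%, 1.22% and 1.33% of exon length) and ACADM (2.65%). The part of these genes in the counts was not tested. RABGGTA, the other subunit, was at 27.6, 33.3 and 25.2 CPM against 26.6, 19.8 and 22.2 CPM with overlapping groups (log2 fold change -0.35, adjusted p = 0.0406, kept in 2 of 6 fits that left out a library). CHM, a RAB escort protein, was at 11.7, 11.3 and 16.0 CPM after DMSO and at 6.64, 7.55 and 7.84 CPM after FT671 (log2 fold change -0.76, SE 0.174, adjusted p = 0.00244). RABIF, a chaperone of nucleotide-free RABs, had a log2 fold change of -0.36 (adjusted p = 0.0191), a call kept in 2 of 6 such fits. The other escort protein CHML (0.21, adjusted p = 0.193), the dissociation inhibitor GDI2 (0.01, adjusted p = 0.892) and RABAC1 (0.15, adjusted p = 0.541) did not pass. The sign of GDI2 turns when libraries are scaled by their totals.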

How the data were processed

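RNA-seq of K562 cells (3 DMSO and 3 FT671 libraries) was re-analysed. The authors depleted total RNA of ribosomal RNA, sequenced it paired-end, aligned the reads to hg38 with STAR and deposited raw read counts per gene, without normalization. The STAR version, annotation release and strand setting are not given in the sources used here. ChIP samples of the same series were not analysed here. Of 60609 gene identifiers, 60295 were matched to GENCODE release 44, which gave symbols, exon lengths and overlaps. Total counts ranged from 4555220 to 14250500.

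FT671 was compared with DMSO by edgeR 4.0.16 (R 4.3.3) with filterByExpr, TMM scaling and the quasi-likelihood test over 13895 genes, without covariates, with Benjamini-Hochberg adjustment at 0.05 and at 1e-05, the threshold of the study's methods. The SE is the log2 fold change divided by the square root of F. CPM used TMM-scaled library sizes. Paralogue ratios added 0.5 counts. Sums, ratios and figures were made in Python 3.11.15 (pandas 2.3.3, numpy 2.4.6, matplotlib 3.10.9).

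The RAB genes, their compartments, the 4 lists and the tests were chosen with earlier results of these data known. Named in the text were all called RAB genes, their paralogues, the 5 highest in CPM per kb, all prenylation genes, and from the other lists the 2 largest rises and 2 largest falls. A gene covered by this rule is not reported here and was left out of its list. Members outside this rule were named after their values were seen. Alternatives were DESeq2 1.42.0 size factors and Wald test, library totals, scaling that left out the 20 genes highest in counts, no filter, a minimum of 10 counts in each library, a fit on protein-coding genes, gene length and GC corrections (loess, span 0.3), thinning to the smallest total, a replicate block and leaving out each library. The fit was tested on simulated counts with 200 changed genes.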

Additional observations from a re-analysis of the deposited data

How the results depend on the processing

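The RAB genes called higher numbered 11 in the comparison as reported, between 8 (no filter on low counts) and 14 (GC correction) under the alternatives, and between 4 and 13 when 1 library was left out. Those called lower numbered 13, then between 11 and 15 in both cases. For these other fits, and for those below, the share of all genes called is not given here. The number past 1e-05 was 3, against 5 with the replicate block, 6 with DESeq2's Wald test, with the GC correction, with the GC correction and the block and with the gene length correction and the block, 11 without a filter, and between 0 and 9 without 1 library. The study describes independent experiments with DMSO or FT671, and the sources used here do not state which libraries belong together. Samples with the same replicate number did not deviate together in every pair (correlations of 0.115, -0.0605 and 0.140). Such correlations cannot exclude pairing, and the comparison as reported did not pair the libraries. The block gave 10 higher and 14 lower RAB genes. It ended the calls of RAB15 (adjusted p = 0.0820), RAB28 (0.0502), RAB3IP (0.0619) and RABGGTA (0.0531) and brought in RAB20 (0.0151), RAB21 (0.0308), AVL9 (0.0391), DENND4A (0.0109), TRAPPC10 (0.0205), TBC1D2B (0.0483) and MICALL2 (0.0351). Combined with the length or GC correction it also ended the call of RAB15 (0.0583 and 0.0536). With the length correction it ended those of RAB1B (adjusted p = 0.149), RAB23 (0.0767) and RAB28 (0.132) as well. The length correction alone ended these calls too. For the paralogue ratios, the block used an exact sign-flip permutation test that cannot go below p = 0.25.

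GEFs called higher numbered 2, against 1 with library totals, DESeq2's Wald test, no filter or the block, 6 with the gene length correction (7 with the block), 4 with the GC correction (5 with the block) and between 1 and 5 without 1 library. TBC domain GAPs called higher numbered 2, against 6 with the length correction (5 with the block). Effectors called higher numbered 4, against 7 with the length correction (9 with the block), 7 with the GC correction with or without the block, and between 4 and 7 without 1 library. Of the prenylation genes, 1 was higher, against 2 under the length or GC correction with or without the block and between 1 and 2 without 1 library, and 3 were lower, against 1 in DESeq2's Wald test and between 1 and 3 without 1 library. The cause of these changes was not tested.

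Signs turned only for values that did not pass 0.05 as reported, all as log2 fold changes. With library totals they were -0.020 (GDI2) and -0.0060 (RAB6A), and without a filter -0.023 and -0.0097 for the same genes. With DESeq2's size factors they were 0.00094 (RAB11B) and 0.011 (RAB31), and with its Wald test 0.00091 and 0.0092. With the GC correction they were 0.061 (RAB11B), 0.031 (RAB26) and 0.028 (RAB31), and with the block added 0.048 (RAB11B), 0.0074 (RAB31) and -0.026 (RAB8B). With the length correction they were 0.039 (RAB14) and 0.083 (RAB31), and with the block added 0.038 and 0.069. Thinning gave -0.022 (RAB8B), and protein-coding genes alone 0.0021 (RAB31). Without 1 library the ranges were -0.019 to 0.075 (GDI2), -0.067 to 0.049 (RAB11B), -0.078 to 0.010 (RAB14), -0.19 to 2.06 (RAB20), -0.20 to 0.0031 (RAB26), -0.076 to 0.079 (RAB31), -0.27 to 0.17 (RAB38), -0.035 to 0.11 (RAB6A) and -0.063 to 0.21 (RAB8B). The log2 ratio of the summed RAB level was 0.040 and became -0.019 when CPM were not divided by exon length.

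At 3 libraries a group and 4555220 counts in the shallowest, RAB genes with a few counts per library could not be tested. Genes that overlap on opposite strands cannot be told apart without the strand setting. For genes that overlap on the same strand, that setting would not separate them.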
